A study of Mus musculus with 11 samples.

Results

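The non-metabolic hypoxia-induced genes are 10 genes that hypoxia-inducible factor (HIF) is known to switch on and that do not act in glycolysis: Adm, Ndrg1, Bnip3, Ankrd37, Ddit4, Car9, Car12, P4ha1, P4ha2 and Kdm3a. They were chosen by name with earlier results of these data known, 1 gene identifier each, among the 55487 identifiers counted in every library. All 10 had enough reads to be tested. RNA was sequenced from whole hearts of untreated E14.5 mouse embryos, 5 Pde2A-/- hearts (KO; replicates A, B, 14, D and 15) and 6 Pde2A+/+ hearts (WT; replicates 6, 7, 8, 11, E and H), 1 library per heart. Both genotypes came from matings between Pde2A+/- parents of a mixed line, B6; 129P2-Pde2A tm1Dgen, in which the gene is disrupted in all cells and not in the heart alone. Embryos of both sexes that were alive at collection were used. The labels state neither the sex nor the litter of a heart, nor what separates replicates named by a letter from those named by a number, so the p-values measure the spread between these hearts only.

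HIF is a transcription factor made of an oxygen-labile alpha subunit (Hif1a, Epas1) and a stable partner (Arnt). In oxygenated cells prolyl hydroxylases of the Egln family mark the alpha subunit for destruction by the Vhl ubiquitin ligase, and when oxygen is low the complex binds a short DNA element at its targets. Part of those targets shift metabolism to glycolysis, while the genes described here serve vascular tone, mitophagy, growth control, pH balance, collagen synthesis and chromatin. The embryonic heart develops at low oxygen tension and uses this pathway during its normal growth.

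The 10 genes all had a higher mean in KO hearts, and 8 of them rose, by 1.61-fold to 4.96-fold. The genes that rose were Adm, Ndrg1, Bnip3, Ankrd37, Ddit4, P4ha1, P4ha2 and Kdm3a (adjusted p between 0.00618 and 0.0191, edgeR's quasi-likelihood test, Benjamini-Hochberg adjustment over the 24177 genes tested). Over all genes tested, 8.93% were higher in KO at an adjusted p under 0.05 and 5.67% were lower. A fold change of at least 2 was reached by 6 of the 10, all but Ddit4 and Kdm3a among those that rose, against 2.21% of all genes. Since the 10 genes were chosen with earlier results of these data known, these shares carry no test. The median log2 fold change of the 10 was 1.15, where that of all genes tested was -0.02. The KO hearts did not share this rise equally: for Kdm3a alone did every KO heart lie above every WT heart, a pattern found in 5.38% of all genes tested. KO heart A stayed near the WT level for most of the genes, KO heart B was next, and hearts 14, D and 15 carried most of the difference. Without KO heart 15 only 3 genes reached a 2-fold change, and without KO heart A 7 had no overlap. With only the letter-named hearts, 3 KO against 2 WT, 0 of the 10 genes passed the test in edgeR, and 2 (P4ha1 and Car12) had an unadjusted p under 0.05.

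Levels are given in CPM, the read count of a gene scaled to a common library total after TMM normalization, and log2 fold changes with their standard error (SE). KO values are listed in the order A, B, 14, D and 15. The libraries held between 35865537 and 42835382 reads counted on genes in the sense orientation, with medians of 37653522 in KO and 37934543 in WT, so depth did not separate the genotypes. The targeted gene, Pde2a (chr7:101421691-101512827), had 0 to 2 counts in every heart, 7 in all, and cannot serve to check the genotypes. Counts come from whole hearts, in which fewer cells of a type and less RNA per cell cannot be told apart.

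**Figure D1:**
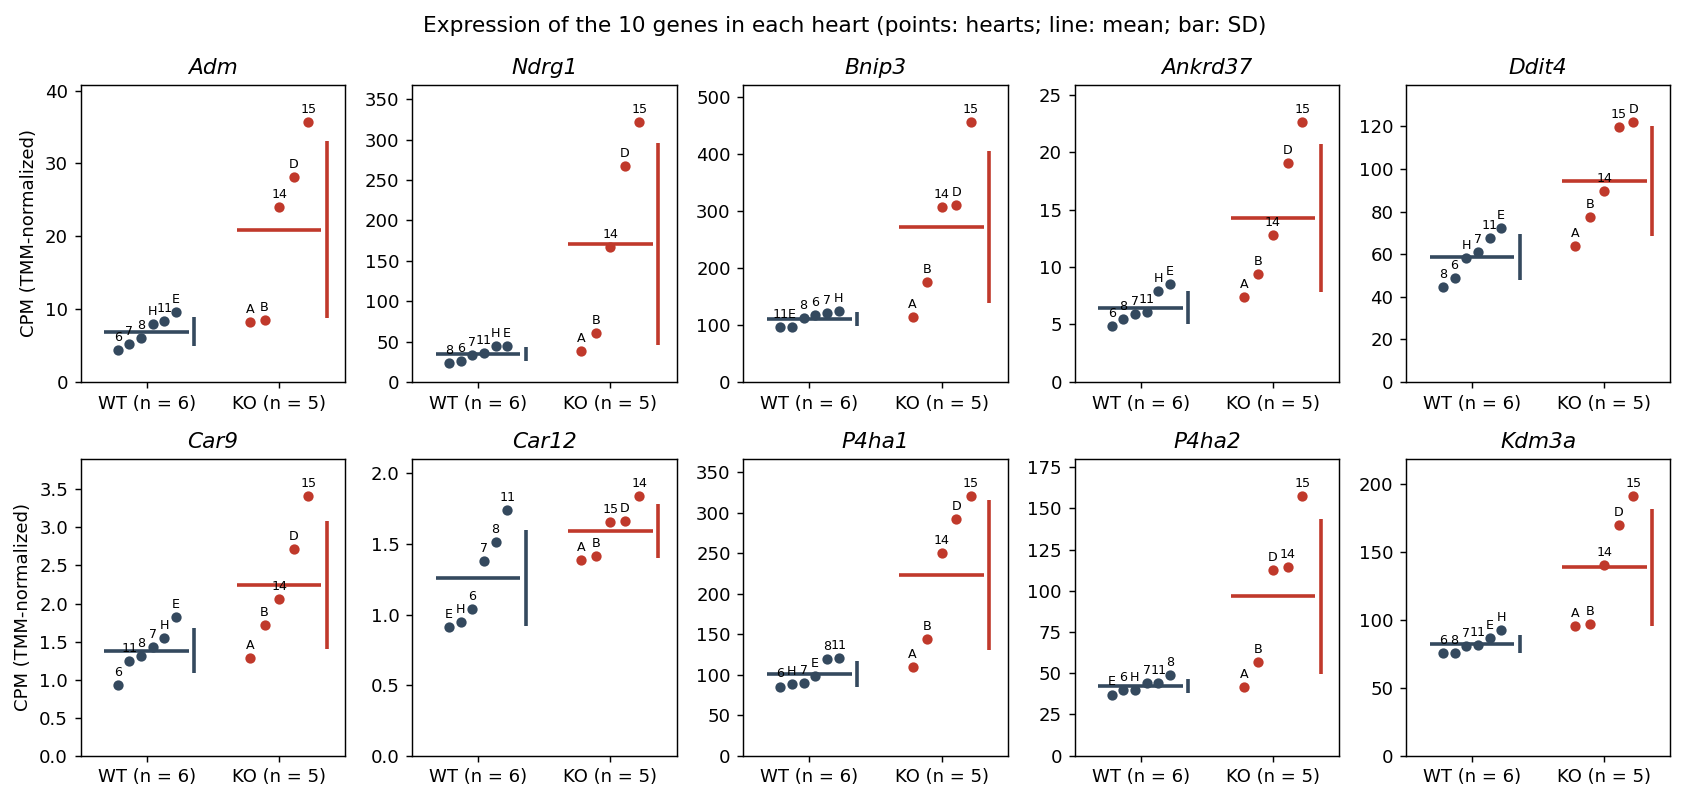
TMM-normalized CPM (vertical axis, from 0, one scale per gene) of each of the 10 genes in the 6 WT and 5 KO hearts; points are hearts marked with their replicate name, lines are means and bars are the SD. KO heart A is the lowest KO point in all 10 panels and lies above every WT heart for Kdm3a only.

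The short element that HIF binds was looked for in the promoter window of each gene. The 10 genes were chosen as known HIF targets, so the share of windows with the element says nothing about these hearts. The windows run from 250 bases before to 50 bases after the RefSeq start (GRCm38.p6), and 9 of the 10 genes had at least 1 window, 11 in all, Ndrg1 not among them. The core motif was taken as ACGTG or GCGTG on either strand. It was present in 8 of the 11 windows, against 43.8% of 32851 windows of all genes. Counted by gene, 8 of the 9 had it in at least 1 window. The ACGTG form was present in 6 windows, against 19.6% of all. The windows of the 10 genes also held more G and C, with a median of 69.0% against 52.7% over all windows, and the motifs contain C and G themselves. The 250 bases before the start are printed for the 3 genes with the most motifs and for the 2 carbonic anhydrases, which did not pass the test. Capitals mark the motif, read on either strand, so that CACGT and CACGC are its reverse complements.
Bnip3, chr7:138909507-138909756, minus strand: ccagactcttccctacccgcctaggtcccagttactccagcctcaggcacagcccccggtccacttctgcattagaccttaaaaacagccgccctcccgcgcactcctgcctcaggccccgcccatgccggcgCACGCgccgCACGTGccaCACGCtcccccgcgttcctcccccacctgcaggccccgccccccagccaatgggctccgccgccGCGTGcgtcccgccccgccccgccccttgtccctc
Ankrd37, chr8:45999851-46000100, minus strand: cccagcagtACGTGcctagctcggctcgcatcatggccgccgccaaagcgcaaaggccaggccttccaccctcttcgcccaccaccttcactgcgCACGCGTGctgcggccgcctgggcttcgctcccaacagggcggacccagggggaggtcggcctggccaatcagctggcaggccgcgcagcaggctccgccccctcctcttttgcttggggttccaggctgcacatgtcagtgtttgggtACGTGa
P4ha2, chr11:54100674-54100923, plus strand: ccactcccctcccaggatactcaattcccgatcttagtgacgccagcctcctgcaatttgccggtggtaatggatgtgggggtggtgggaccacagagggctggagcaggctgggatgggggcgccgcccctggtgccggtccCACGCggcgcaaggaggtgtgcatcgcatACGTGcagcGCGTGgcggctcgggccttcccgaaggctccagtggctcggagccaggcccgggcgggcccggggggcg
Car9, chr4:43506776-43507025, plus strand: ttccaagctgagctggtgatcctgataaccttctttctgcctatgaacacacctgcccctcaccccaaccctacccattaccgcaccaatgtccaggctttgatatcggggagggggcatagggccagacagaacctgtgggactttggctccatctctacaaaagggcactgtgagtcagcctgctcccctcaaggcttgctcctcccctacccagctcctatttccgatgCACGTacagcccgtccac
Car12, chr9:66713436-66713685, plus strand: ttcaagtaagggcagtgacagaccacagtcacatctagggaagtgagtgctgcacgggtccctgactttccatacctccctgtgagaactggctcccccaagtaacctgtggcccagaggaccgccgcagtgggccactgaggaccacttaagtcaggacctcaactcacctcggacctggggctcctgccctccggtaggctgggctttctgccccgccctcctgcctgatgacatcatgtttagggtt

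Bnip3 held 5 motifs, all within 117 bases of the start, and its palindrome CACGTG was counted once on each strand. Ankrd37 had 4, one of them 6 bases before the start, and P4ha2 had 4, of which 1 lay 10 bases into the transcript and is not shown. In Car9 a single ACGTG on the minus strand began 18 bases before the start. Car12 had no match in this window. P4ha1 had 3 motifs, Adm and Ddit4 had 2 each, and Kdm3a had 1, 27 bases before the start of the first of its 3 windows. A match is only a description of the letters, and no binding was measured.

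Adm (ENSMUSG00000030790, chr7:110627661-110629820, plus strand) encodes adrenomedullin, a secreted peptide that dilates vessels and is needed for the growth of blood and lymph vessels. Its level in KO hearts was 8.27, 8.45, 24.0, 28.2 and 35.7 CPM, and in WT hearts it ran from 4.33 through a median of 6.98 to 9.58 CPM. Hearts 14, D and 15 lay far above all WT hearts, while A and B fell among the WT values. The means were 20.9 ± 12.2 CPM in KO (SD, n = 5) and 6.91 ± 2.04 CPM in WT (SD, n = 6), a log2 fold change of 1.59 (SE 0.36, 95% interval 0.81 to 2.37, adjusted p = 0.0134, edgeR's quasi-likelihood test).

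The receptor of adrenomedullin is built from Calcrl and an accessory protein, Ramp2 or Ramp3, whereas Calcrl with Ramp1 binds the related peptide CGRP. Among the 5 receptor genes listed, 2 rose and 1 fell. Ramp3 was at 3.42, 4.11, 5.38, 5.55 and 8.18 CPM in KO and between 1.70 and 2.41 CPM in WT, a log2 fold change of 1.29 (SE 0.19, adjusted p = 0.00108, edgeR). Every KO heart lay above every WT heart, heart A included. Calcrl rose less, with 76.0 to 101.9 CPM in KO against 54.1 to 69.0 CPM in WT and a log2 fold change of 0.50 (SE 0.08, adjusted p = 0.00183, edgeR), again without overlap. Ramp1 fell by 0.73 on the log2 scale (SE 0.09, adjusted p = 3.28e-04, edgeR), from 29.6 to 43.1 CPM in WT to 19.8 to 24.2 CPM in KO, and all 5 KO hearts lay below the WT hearts. For Ramp2 and the scavenger receptor Ackr3 the log2 fold changes were 0.23 (adjusted p = 0.0592) and -0.11 (adjusted p = 0.544), neither past the threshold in edgeR with all hearts. Ramp2 passed in DESeq2, and in edgeR with its own expression filter, with both strands or without KO heart 15. Ackr3 passed as lower among number-named hearts only (adjusted p = 0.0476, edgeR). The endothelial marker genes, whose cells carry this receptor, had a summed level of 1657 to 1861 CPM in KO and 1360 to 1617 CPM in WT, with 5 of 13 higher and 1 lower. The 5 were 3 without KO heart B or 14 or any WT heart but E, and their part in the receptor changes was not tested.

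Ndrg1 (ENSMUSG00000005125, chr15:66929318-66969640, minus strand), a cytoplasmic stress-response protein linked to differentiation and to lipid and vesicle traffic, had the largest fold change of the 10. It was at 37.8, 60.1, 167.2, 267.5 and 322.0 CPM in KO, and at 23.0, 34.8 and 44.6 CPM as the lowest, median and highest of the WT hearts. Heart A lay inside the WT range and the other 4 KO hearts above it, so that the highest KO heart was 8.51 times the lowest. Means were 170.9 ± 124.7 CPM (SD, n = 5) and 34.4 ± 9.10 CPM (SD, n = 6), with a log2 fold change of 2.31 (SE 0.45, 95% interval 1.33 to 3.29, adjusted p = 0.00618, edgeR). Its paralogs Ndrg2, Ndrg3 and Ndrg4, named here after their values were seen, did not pass the test, with log2 fold changes of 0.12, -0.01 and -0.16 (adjusted p = 0.380, 0.974 and 0.146, edgeR).

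Bnip3 (ENSMUSG00000078566, chr7:138890836-138909519, minus strand) encodes a protein of the outer mitochondrial membrane that recruits the autophagy machinery and removes mitochondria. The KO hearts held 114.6, 174.7, 307.1, 310.3 and 456.6 CPM, and the WT hearts 95.9 to 124.5 CPM with a median of 115.1. Heart A sat at the WT median and the other 4 above every WT heart. The log2 fold change was 1.29 (SE 0.26, 95% interval 0.73 to 1.86, adjusted p = 0.00739, edgeR), from means of 272.7 ± 133.2 CPM in KO (SD, n = 5) and 111.3 ± 12.2 CPM in WT (SD, n = 6). Adm and Bnip3 lie on chromosome 7 with Pde2a, 9.11 and 37.4 Mb from it; whether 129P2 sequence carried along with the allele reaches them was not tested.

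Ankrd37 (ENSMUSG00000050914, chr8:45996902-46005707, minus strand) encodes a small ankyrin-repeat protein that is a direct HIF target. In KO hearts it was at 7.41, 9.42, 12.8, 19.0 and 22.6 CPM, and in WT hearts at 4.91 to 8.55 CPM with a median of 5.99. All KO hearts but A were above the WT range. It rose by 1.14 on the log2 scale (SE 0.26, 95% interval 0.58 to 1.69, adjusted p = 0.0133, edgeR), with means of 14.2 ± 6.42 CPM (SD, n = 5) against 6.46 ± 1.44 CPM (SD, n = 6).

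Ddit4 (ENSMUSG00000020108, chr10:59949669-59951834, minus strand), also called Redd1, restrains the growth kinase complex mTORC1 through Tsc1 and Tsc2. Its KO values of 63.7, 77.5, 89.4, 122.0 and 119.7 CPM compare with 44.4, 59.6 and 72.1 CPM as the lowest, median and highest WT hearts. It is the gene in which heart D, not 15, was the highest, and A again fell within the WT range. The log2 fold change was 0.69 (SE 0.17, 95% interval 0.32 to 1.05, adjusted p = 0.0191, edgeR), the smallest of the 8 that rose, and it missed the threshold when KO heart D was left out (adjusted p = 0.0612) or KO heart 15 (adjusted p = 0.0559). Of 10 genes of the mTORC1 pathway 0 passed the test in either direction with edgeR, and their median log2 fold change was -0.02; at an unadjusted p under 0.05 there were 1 higher and 3 lower. The 3 with the largest values were Sesn3 (-0.25, adjusted p = 0.109), Tsc1 (0.24, adjusted p = 0.0573) and Sesn1 (0.17, adjusted p = 0.167), and DESeq2 called 1 gene of this list higher and 2 lower. Without KO heart A or B, edgeR called 1 higher and 1 lower, and without WT heart 11 1 lower.

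Car9 and Car12 encode carbonic anhydrases of the cell surface, which hydrate carbon dioxide outside the cell and so help to keep the pH inside. Car9 (ENSMUSG00000028463, chr4:43506966-43513729, plus strand) was at 1.28, 1.72, 2.07, 2.72 and 3.42 CPM in KO and at 0.932 to 1.82 CPM in WT, with a median of 1.37. Hearts 14, D and 15 exceeded every WT heart and A and B did not. Its log2 fold change of 0.69 had the same size as that of Ddit4 but a wider error (SE 0.24, 95% interval 0.17 to 1.21, adjusted p = 0.0705, edgeR). Only 34 to 124 reads per heart lie behind these values, 750 in all, and 957 more were counted on the opposite strand. Gm12454 lies there and shares 214 bases of the Car9 exons, but the source of the opposite-strand reads was not tested. Those reads were 82 to 110 per heart in KO and 66 to 105 in WT. Counts that ignore strand held 1493 reads and gave a log2 fold change of 0.38 (adjusted p = 0.0924, edgeR). Car9 passed the threshold in DESeq2 (adjusted p = 0.0385) and in edgeR without KO heart A (adjusted p = 0.0174).

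Car12 (ENSMUSG00000032373, chr9:66713686-66766845, plus strand) was the exception to the common pattern. Its KO hearts held 1.38, 1.42, 1.84, 1.67 and 1.65 CPM and its WT hearts 0.912 to 1.74 CPM, with a median of 1.21, from 38 to 74 reads per heart. The genotypes overlapped, only heart 14 lay above the WT range, and the KO hearts were closer together than the WT hearts. The log2 fold change was 0.34 (SE 0.19, adjusted p = 0.245, edgeR), and its 95% interval, -0.07 to 0.75, leaves both no change and a rise like that of Ddit4 within reach.

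A list of 17 relatives of the 10 genes, among them 8 further carbonic anhydrases, was set beside them. Of these 17, 5 rose and 0 fell with edgeR (1 was lower at an unadjusted p under 0.05, and 0 in DESeq2). Those that rose were Car2, Adm2, Car13, Car14 and Jmjd1c, of which Car14 and Jmjd1c are named after their values were seen. Car2, a cytosolic carbonic anhydrase abundant in red cells, rose by 2.32 on the log2 scale (SE 0.20, adjusted p = 1.05e-05, edgeR), with 105.4, 191.1, 159.9, 140.8 and 166.2 CPM in KO and 17.5 to 43.5 CPM in WT. Heart A thus stood well above the WT hearts for Car2, unlike for Car9, and the order of the KO hearts was another one. Genes of red cells and their precursors moved too. Of 20 erythroid marker genes 11 were called higher and 1 lower, and their median log2 fold change was 1.37. The 7 globins and the 13 other genes differed here, a split that was not set beforehand. Among the 13, Alas2 had a lower mean in KO, 124.3 against 189.0 CPM in WT, but was not called (adjusted p = 0.221, edgeR). All 11 called higher were among the 13, for which the summed level was 847, 1516, 1294, 1181 and 1284 CPM in KO and 398 to 751 CPM in WT, without overlap. The globins summed to 5574 to 8748 CPM in KO, inside the 4580 to 16101 CPM of WT, and the gene that fell was Hbb-bt. A was the lowest KO heart and B the highest both for Car2 and for the sum of the 13 genes, and the part of red cells in the Car2 difference was not tested. Adm2, which encodes the related peptide intermedin, was low, at 0.287, 0.708, 1.84, 1.42 and 3.36 CPM in KO and 0.217 to 0.447 CPM in WT, and it rose by 2.21 on the log2 scale (SE 0.48, adjusted p = 0.0111, edgeR). Car13 rose by 0.67 on the log2 scale (SE 0.20, adjusted p = 0.0405, edgeR), though only 2 of the 5 KO hearts lay above the WT range. Car13 and Car14 each missed the threshold when any of KO hearts 14, D and 15 or any WT heart but 11 was left out (adjusted p up to 0.113 and 0.0946, edgeR), while Car2 passed under all 21 alternatives. The 5 relatives became 2 without KO heart D, KO heart 15 or WT heart 6, and 3 without KO heart 14 or WT heart 8, H or E.

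P4ha1 and P4ha2 encode the catalytic alpha subunits of collagen prolyl 4-hydroxylase, the enzyme of the endoplasmic reticulum that makes collagen helices stable and that itself uses oxygen. P4ha1 (ENSMUSG00000019916, chr10:59323296-59373304, plus strand) was at 109.7, 143.4, 250.6, 291.6 and 320.6 CPM in KO and at 85.3 to 120.9 CPM in WT, with a median of 93.6. P4ha2 (ENSMUSG00000018906, chr11:54100095-54131665, plus strand) was at 41.6, 56.8, 114.7, 112.4 and 157.7 CPM in KO and at 37.1 to 49.1 CPM in WT, with a median of 42.0. In both genes A lay within the WT range and the other 4 KO hearts above it.

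The log2 fold changes of the alpha subunits were alike, 1.16 for P4ha1 (SE 0.24, 95% interval 0.65 to 1.66, adjusted p = 0.00766, edgeR) and 1.19 for P4ha2 (SE 0.26, 95% interval 0.62 to 1.76, adjusted p = 0.0119, edgeR). Means ± SD were 223.2 ± 92.4 CPM (n = 5) and 100.2 ± 16.1 CPM (n = 6) for P4ha1, and 96.6 ± 47.2 CPM (n = 5) and 42.3 ± 4.25 CPM (n = 6) for P4ha2. The third alpha subunit P4ha3 and the beta subunit P4hb, named after their values were seen, did not pass the test, with log2 fold changes of 0.17 (SE 0.06, adjusted p = 0.0771) and 0.19 (SE 0.08, adjusted p = 0.116) in edgeR. P4ha3 passed in DESeq2 and in edgeR without WT heart 7. P4hb passed in edgeR with the naming style as covariate and without KO heart A. The fibroblast marker genes, of cells that make most collagen, were higher for 5 of 12 and lower for none by edgeR or DESeq2; their summed level was 7439, 7302, 9285, 11753 and 10134 CPM in KO and ran from 6137 to 11296 CPM in WT. The count of 5 was 3 without KO heart 14, D or 15 or WT heart 7, 6 or H. Within KO this sum, like P4ha1 and P4ha2, was lower in A and B than in the other 3 hearts. The sum was highest in KO heart D, but P4ha1 and P4ha2 were highest in 15. WT heart 11 had both the highest sum and the highest P4ha1 level among WT hearts. WT heart E, with a sum of 9991 CPM, had the lowest P4ha2 level among them, 37.1 CPM. P4ha2 was highest in WT heart 8, where the sum was 8415 CPM. The part of fibroblasts in these changes was not tested.

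Kdm3a (ENSMUSG00000053470, chr6:71588972-71632990, minus strand) encodes a demethylase of histone H3 that removes methyl groups from lysine 9 and, like the collagen hydroxylases, needs oxygen. It stood at 95.3, 96.7, 139.8, 169.8 and 191.0 CPM in KO and at 75.2, 81.1 and 92.2 CPM as the lowest, median and highest of WT. The groups did not overlap, although hearts A and B exceeded the highest WT heart by little. It rose by 0.76 on the log2 scale (SE 0.16, 95% interval 0.41 to 1.10, adjusted p = 0.00952, edgeR), from a mean of 82.0 ± 6.50 CPM (SD, n = 6) to 138.5 ± 42.9 CPM (SD, n = 5). Of its relatives Jmjd1c rose by 0.39 (SE 0.10, adjusted p = 0.0212, edgeR) and Kdm3b had a log2 fold change of 0.07 (SE 0.05, adjusted p = 0.314, edgeR). Jmjd1c missed the threshold without KO heart D, KO heart 15 or WT heart 6 (adjusted p = 0.0643, 0.0508 and 0.0504, edgeR).

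**Figure D2:**
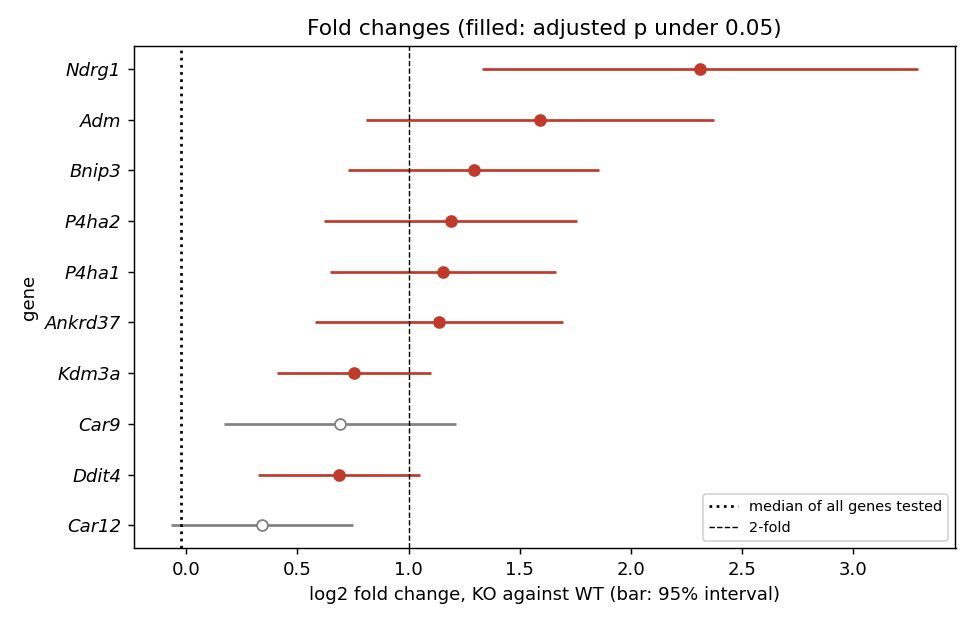
Log2 fold change of KO against WT (horizontal axis) for the 10 genes, ordered by size, with 95% intervals; filled points have an adjusted p under 0.05, the dotted line is the median of all genes tested and the dashed line a 2-fold change. The intervals of Ndrg1, from 1.33, and Car12, up to 0.75, do not overlap.

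Per kilobase of exon, which allows genes to be compared, Bnip3 was the highest of the 10 in WT hearts, with a mean of 49.1 CPM per kb, ahead of Ddit4 with 33.4, P4ha1 with 24.4 and Kdm3a with 9.97 CPM per kb. P4ha2, Ndrg1, Adm and Ankrd37 followed at 6.79, 5.22, 4.27 and 4.20 CPM per kb, and Car9 and Car12 were lowest at 0.600 and 0.165 CPM per kb. The ranges of the 6 WT hearts overlapped between Ddit4 and P4ha1 and between each neighbouring pair from P4ha2 to Ankrd37, so these are not ordered beyond their spread. In KO hearts the mean of Bnip3 was again the highest, at 120.4 CPM per kb. Its KO hearts, with 50.6 to 201.6 CPM per kb, overlapped those of P4ha1, 26.7 to 77.9, and Ddit4, 36.3 to 69.5. The mean of Ndrg1, at 25.9 CPM per kb, was above those of Kdm3a, at 16.8, and P4ha2, at 15.5 CPM per kb. The KO hearts of these last 3 genes overlapped too, with 5.73 to 48.8 CPM per kb for Ndrg1, 11.6 to 23.2 for Kdm3a and 6.66 to 25.3 for P4ha2, so they are not ordered in KO beyond their spread.

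The KO hearts kept nearly 1 order across the genes. Heart A was the lowest KO heart for 10 of 10 genes and B the next for 10 of 10. Heart 15 was the highest for 8 genes, D the second for 8 and 14 the third for 8. The exceptions at the top were Ddit4, led by D, and Car12, led by 14. The median over the 10 genes of the log2 difference from the WT mean was 0.16 in A, 0.43 in B, 1.17 in 14, 1.45 in D and 1.76 in 15, while the same median over all genes of at least 1 CPM lay between -0.01 and 0.01 in each of these hearts. Heart A exceeded all WT hearts for 1 of the 10 genes and B for 7, against 10 for heart 14 and 9 for each of D and 15. Over all genes tested, the share above all WT hearts ran from 16.4% in A to 27.5% in 15, so that A, with 1 of 10, was near its share for all genes.

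Over all genes called higher, heart A was above the WT hearts more often than for the genes described here. Of the 2160 genes called higher in KO, 66.9% were above all WT hearts in heart A, 84.0% in B, 96.7% in 14, 97.6% in D and 98.1% in 15. For the 8 genes that rose here, the numbers were 1 of 8 in A, 7 of 8 in B and 8 of 8 in the others. Over the 2160 genes, the median log2 difference from the WT mean was 0.23 in A, 0.36 in B, 0.54 in 14, 0.62 in D and 0.73 in 15. The same order of hearts as in the 10 genes was thus found there. These shares and medians describe the hearts that made the calls and carry no test. Among other HIF targets named below, heart A also lay inside the WT range for Slc2a1, Slc2a3, Hk2, Vegfa and Egln1. It lay above that range for Hmox1, Bhlhe40 and Egln3, so its low position was shared in part.

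**Figure D3:**
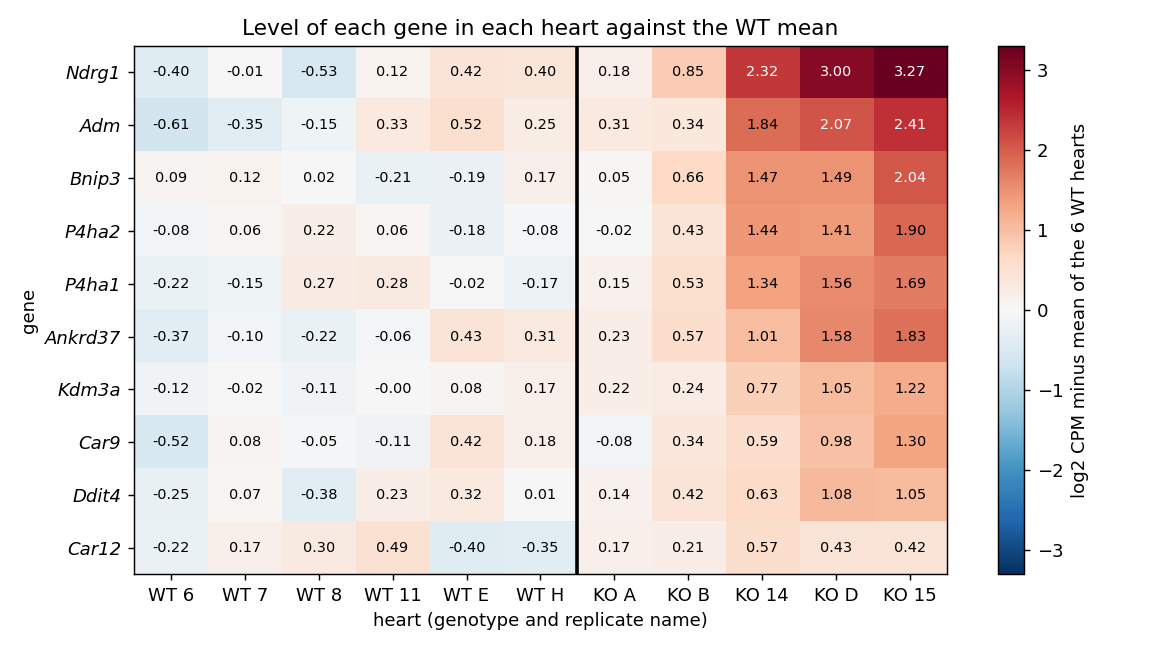
Difference in log2 CPM from the mean of the 6 WT hearts (colour and printed number) for each gene (rows) in each heart (columns, WT left of the line and KO right of it). Reading the KO columns, A and B stay at 0.85 or lower in every row, while the 3 others reach up to 3.27, in Ndrg1.

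The spread between KO hearts exceeded that between WT hearts for 9 of the 10 genes. On the log2 scale the ratio of the KO SD to the WT SD had a median of 2.64 over the 10 genes, where it was 1.24 over the 14024 genes of at least 1 CPM. It was above 2 for 7 of the 10, against 24.1% of those genes. P4ha2 had the highest ratio, 5.58, and Bnip3 and Kdm3a followed with 4.83 and 4.07. Ndrg1 and Adm had the largest SD itself in KO, 1.35 and 0.997, and in WT they also varied more than the others, with SDs of 0.40 and 0.44. Car12 was again the exception, with a ratio of 0.45. The SDs rest on 5 and 6 hearts, and no test of the ratio was made.

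**Figure D4:**
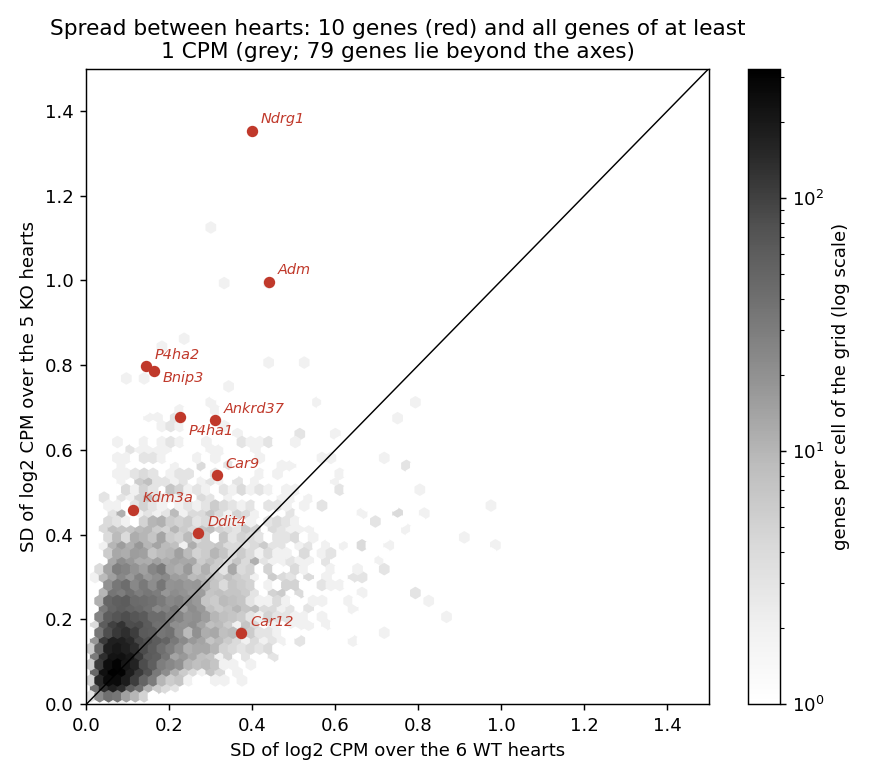
SD of log2 CPM over the 6 WT hearts (horizontal) against that over the 5 KO hearts (vertical) for the 10 genes in red and the genes of at least 1 CPM in grey shades, on a line of equality; 79 of the 14024 genes lie beyond the axes. Car12 is the only red point below the line.

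The order of the WT hearts was less regular. Heart E was the highest WT heart for 5 genes (Adm, Ndrg1, Ankrd37, Ddit4 and Car9) and heart 6 the lowest for 5. The collagen hydroxylases went another way: P4ha1 was highest in 11 and P4ha2 in 8, and E was the lowest WT heart for P4ha2 and Car12. The median log2 difference from the WT mean ran from -0.23 in heart 6 to 0.20 in heart E, a range smaller than the distance from KO heart B to any of hearts 14, D and 15.

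Genes of oxygen sensing, meaning the HIF subunits, their hydroxylases and other regulators, were listed with the pathway, 11 genes of which 3 rose and 1 fell. Egln3, a hydroxylase that HIF itself induces, was at 43.1, 64.1, 130.7, 180.0 and 220.6 CPM in KO and 24.4 to 42.7 CPM in WT, a log2 fold change of 1.98 (SE 0.35, adjusted p = 0.00316, edgeR). Egln1, the main hydroxylase of Hif1a, was at 192.1, 229.1, 347.2, 342.0 and 459.8 CPM in KO and 182.4 to 207.5 CPM in WT, a log2 fold change of 0.66 (SE 0.17, adjusted p = 0.0229, edgeR). Both had the same low heart, A, as the 10 genes. Egln1 missed the threshold without KO heart 14, D or 15 (adjusted p = 0.0608, 0.0638 and 0.0558, edgeR). Hif3a had a log2 fold change of 0.50 that did not pass the test with all hearts (SE 0.16, adjusted p = 0.0556, edgeR). It passed in DESeq2 (adjusted p = 0.0212), and in edgeR with its own expression filter or the Xist level as covariate. It also passed in edgeR without KO heart A, KO heart B or WT heart E, and among number-named hearts. The other 2 genes called in this list in the full comparison are named after their values were seen. Arnt rose by 0.30 (SE 0.07, adjusted p = 0.0168, edgeR), with every KO heart above WT (adjusted p = 0.0545 without KO heart D), and the mRNA of Hif1a fell by 0.36 (SE 0.08, adjusted p = 0.00957, edgeR), from 400.2 ± 46.6 CPM in WT (SD, n = 6) to 312.7 ± 19.3 CPM in KO (SD, n = 5), with every KO heart below WT. The 3 genes higher became 1 without KO heart D and 5 without KO heart A or B, and without A or B 2 genes were lower. Hif1a is controlled mainly as a protein, which was not measured.

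The metabolic targets of HIF gave 16 genes higher and 0 lower of 22 tested, with a median log2 fold change of 0.41. The glucose transporter Slc2a3 had the largest change, 1.68 (SE 0.37, adjusted p = 0.0118, edgeR), with 39.9, 52.6, 133.6, 157.9 and 256.7 CPM in KO against 35.3 to 47.7 CPM in WT. Hexokinase Hk2 rose by 1.47 (SE 0.31, adjusted p = 0.00899, edgeR) and the glucose transporter Slc2a1 by 1.12 (SE 0.22, adjusted p = 0.00581, edgeR). For Slc2a3 and Hk2 heart A lay inside the WT range and the other 4 KO hearts above it. The 16 fell to 8 when any one of KO hearts 14, D or 15 was left out.

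Of 26 further non-metabolic HIF targets 25 were tested, Epo having too few reads, and 20 rose and 0 fell, with a median log2 fold change of 0.66. Hmox1, which degrades haem, rose by 1.50 (SE 0.27, adjusted p = 0.00341, edgeR), from 21.2 to 31.1 CPM in WT to 33.5, 38.3, 62.3, 96.2 and 108.2 CPM in KO. The repressor Bhlhe40 rose by 1.49 (SE 0.26, adjusted p = 0.00286, edgeR), from 38.4 to 67.6 CPM in WT to 68.1, 94.8, 121.0, 204.8 and 200.3 CPM in KO. Vegfa, the main growth factor of vessels, rose by 1.39 (SE 0.25, adjusted p = 0.00405, edgeR), from 94.7 to 120.9 CPM in WT to 120.7, 181.7, 285.3, 361.1 and 448.8 CPM in KO. For Hmox1 and Bhlhe40 even heart A lay above all WT hearts, if barely for Bhlhe40, and for Vegfa it did not. In neither list of targets was a gene lower at an unadjusted p under 0.05 or in DESeq2. The count of 20 was 10 without KO heart D, 11 without KO heart 15 and 13 without KO heart 14.

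**Figure D5:**
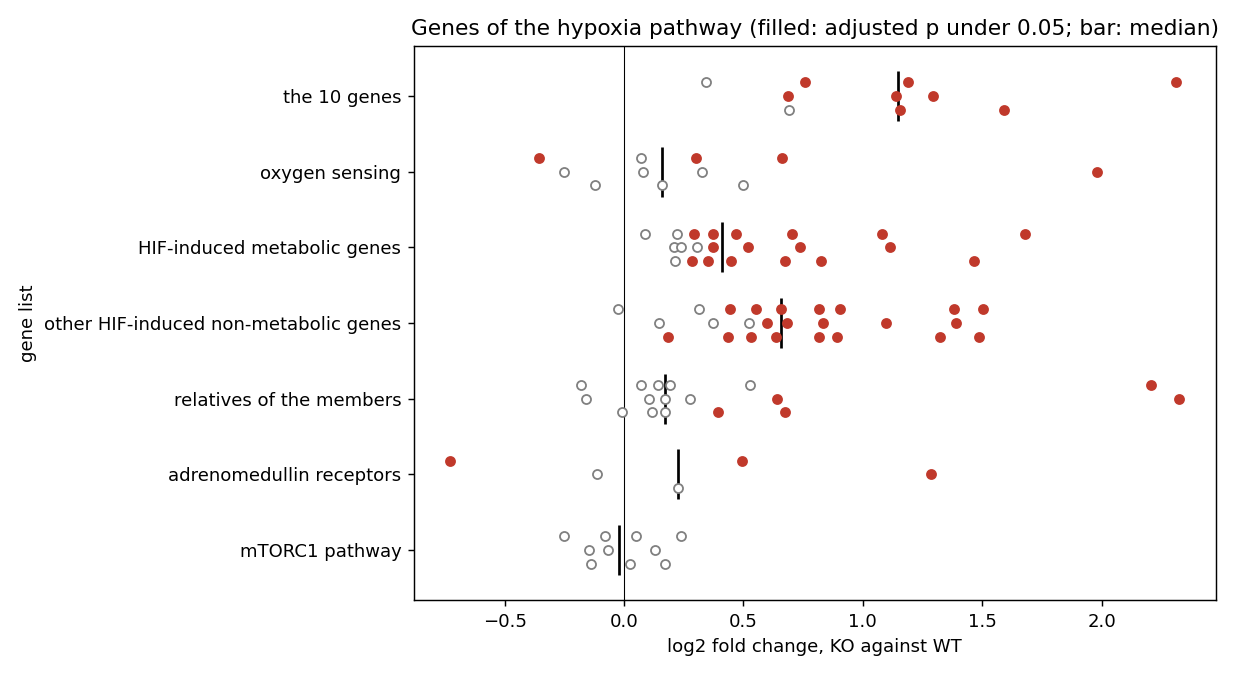
Log2 fold change of KO against WT (horizontal axis) for the 10 genes and for the genes of 6 pathway lists (rows, shifted vertically only to separate points); filled points have an adjusted p under 0.05 and bars are list medians. The medians run from -0.02 in the mTORC1 pathway to 0.66 in the other non-metabolic targets and 1.15 in the 10 genes.

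Markers of the cell types a heart sample can hold were measured beside these genes. Cardiomyocyte genes were abundant in every library, at a summed 46220 to 52314 CPM in KO and 45625 to 60630 CPM in WT, with 1 of 18 higher and 6 lower. Of the macrophage genes 10 of 12 were higher, none was lower by edgeR or DESeq2, and their sum was 234.2, 265.4, 307.2, 291.6 and 307.7 CPM in KO against 118.3 to 186.9 CPM in WT. The groups did not overlap in this sum, and A and B were again the lowest KO hearts, though A was further from WT here than for most of the 10 genes. Epicardial genes, of which edgeR called 1 of 8 lower and DESeq2 also 1 higher, summed to 349 and 399 CPM in A and B and to 542 to 564 CPM in the other KO hearts, but WT hearts 11 and 8 reached 621 and 604 CPM. Smooth muscle genes were lower for 2 of 9, with sums of 1642 to 1910 CPM in KO and 1675 to 2387 CPM in WT. Hepatocyte genes, with 0 of 10 called by edgeR, 2 lower at an unadjusted p under 0.05 and 1 lower in DESeq2, summed to 4.74 to 45.0 CPM in KO and 3.78 to 120.3 CPM in WT, and the highest sum was in WT heart E. The part of these cell types in the results was not tested. With single hearts left out, macrophage genes higher ran from 9 to 12 and erythroid genes higher from 11 to 12. Cardiomyocyte genes lower were 10 without KO heart B. The epicardial gene lower became 0 without KO heart 14, D or 15 or WT heart 6, 7, 8 or 11, 2 epicardial genes were higher without KO heart A, and the smooth muscle genes lower became 0 without KO heart 15 or WT heart 6, 7, 8 or H and 1 without KO heart A, B, 14 or D or WT heart E. Hepatocyte genes lower were 2 without KO heart D and 1 without WT heart 8.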

How the data were processed

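Stranded mRNA libraries of 11 embryonic hearts were sequenced from 1 end. The authors aligned them with STAR to the mouse build GRCm38; the STAR version is not given in the sources used here. They deposited raw counts per gene, 1 file per heart. The column of counts on the sense strand was used. Of its reads, 19.6% to 22.4% were not assigned to a gene, unmapped and ambiguous reads included, and were left out. Expression was compared with edgeR 4.0.16 in R 4.3.3 (TMM, quasi-likelihood test, no covariate) over the 24177 genes with at least 10 counts in all, with Benjamini-Hochberg adjustment and a threshold of 0.05. CPM are TMM-normalized, and log2 CPM has a prior count of 2. Positions are from GENCODE M21, which matched 55227 of the 55487 identifiers; where a symbol had several identifiers the one with the most counts was taken. Levels per kb use all annotated exons.

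The 10 genes, 6 pathway lists and 8 marker lists were chosen by name with earlier results of these data known. Named beyond them were the 3 genes of each pathway list with the largest absolute fold change and the 6 genes of most similar profile. In data simulated for the comparison of KO with WT over 23654 genes, edgeR recovered 94 of 100 genes given a log2 change of 1. It recovered 99 of 100 given one of 2, with 11 wrong calls. DESeq2 1.42.0 gave 96 and 100, with 47 wrong calls. The simulation gave both genotypes the same spread and every KO heart the same shift, unlike most of the 10 genes. These rates therefore do not carry over to them. The common biological variation between hearts was 16.8%. For Bnip3, Ankrd37 and Ndrg1, counts that ignore strand hold only 41.6%, 62.7% and 78.9% of the sense reads, since genes on the opposite strand share their exons.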

Additional observations from a re-analysis of the deposited data

How the results depend on the processing

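The fold changes and counts of the 10 genes, the list counts, the fold changes of the list genes named and the counts over all genes were recomputed under 21 alternatives, 11 of which left out 1 heart. Those for marker lists and list genes were chosen after seeing the data, and the order of hearts, SD ratios, levels per kb and promoter counts were not recomputed. No gene of the 10 changed direction in any of them. No paired analysis was possible because KO and WT hearts share no replicate names. The 8 genes that rose became 7 to 9 with a heart left out, and 0 with only the letter-named hearts (KO A, B and D against WT E and H), a comparison that called 86 genes higher in all. The 6 with a fold of at least 2 became 3 to 6, with 3 when KO heart 15 was left out, and 0 among letter-named hearts. The 1 gene without overlap became 1 to 7, with 7 when KO heart A was left out, 4 among letter-named and 9 among number-named hearts. The median log2 fold change of 1.15 ran from 0.93 to 1.32, and was 0.72 among letter-named and 1.54 among number-named hearts. Besides the changes given above, Car9 passed with the Xist level as covariate (adjusted p = 0.0425, edgeR) and among number-named hearts (adjusted p = 0.0239, edgeR); the cause was not tested. Naming style as a covariate, TMM replaced by DESeq2 size factors, other filters, both strands and leaving out the globin genes changed no call among the 10.

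Over all genes tested, the 2160 higher became 1288 to 2887 and the 1372 lower 414 to 2165 with a heart left out, fewest without KO heart D and most without KO heart A. Among the pathway lists, letter-named hearts alone gave 0 metabolic, 0 further non-metabolic, 0 oxygen-sensing and 0 receptor genes higher, 0 oxygen-sensing genes lower and 1 relative higher. With a heart left out, the counts higher ran from 8 to 21 for metabolic genes (16 in the full comparison), 10 to 22 for the further non-metabolic genes (20), 1 to 5 for oxygen sensing (3), 2 to 6 for relatives (5) and 0 to 1 for mTORC1 (0), and the counts lower from 1 to 2 for oxygen sensing (1) and 0 to 1 for mTORC1 (0). Oxygen-sensing genes higher were 5 with the Xist covariate and 5 among number-named hearts. Those lower were 3 with DESeq2 and with edgeR's own expression filter, and 2 with DESeq2 size factors, both strands, globin genes left out, the Xist covariate and number-named hearts. For mTORC1, 1 gene was higher with DESeq2, that filter, the Xist covariate and number-named hearts, while 2 were lower with DESeq2, that filter and the Xist covariate, and 1 with the naming-style covariate and among number-named hearts. Receptor genes higher (2 in the full comparison) ran from 2 to 3 with a heart left out, and receptor genes lower were 2 among number-named hearts. Of the list genes named, those that changed sign were not called in the full comparison: among letter-named hearts Ackr3 was at 0.076, Kdm3b at -9.06e-05, Ndrg2 at -0.083 and Ndrg3 at 0.15, and Ndrg3 was at 0.026 with the naming-style covariate, 0.0018 with the Xist covariate and -0.041 to 0.083 with a heart left out. Car9 and Car12 rest on the fewest reads of the 10 genes, 34 to 124 and 38 to 74 per heart.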

Other observations

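Outside the genes and lists named above, the 6 genes of at least 5 CPM whose scaled profile over the 11 hearts lay closest to the mean profile of the 10 genes were Khnyn, Sema4g, Rora, Zfp516, Foxo3 and Ddit3. Their root mean square distances, in SD of a gene's own log2 CPM, were between 0.124 and 0.148, where the median over 11165 genes was 1.39. Within the 10 genes themselves the distance ran from 0.159 for Ndrg1, through 0.179 for Kdm3a, to 0.832 for Car12. Rora, a nuclear receptor, had the largest fold change of the 6, from 13.1 ± 1.62 CPM in WT (SD, n = 6) to 52.0 ± 33.6 CPM in KO (SD, n = 5). Foxo3, a transcription factor of stress and autophagy, went from 76.2 ± 7.08 CPM in WT (SD, n = 6) to 151.9 ± 52.5 CPM in KO (SD, n = 5). Ddit3, which encodes the stress factor Chop, went from 8.67 ± 0.716 CPM in WT (SD, n = 6) to 16.9 ± 7.41 CPM in KO (SD, n = 5). These genes were picked for the likeness of their profile, so no test is given. For the 10 genes in each genotype, the highest and lowest hearts were also examined with Dixon's criterion, and of the 20 groups, in which chance marks about 1 in 20, no heart stood apart.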
